A study of Mus musculus with 12 samples.

Results

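The genes described here encode the proteins that work immediately around Toll-like receptor 4 (TLR4). They are its coreceptors (Cd14 and Ly96), its adaptors (Myd88, Tirap, Ticam1 and Ticam2), the kinases and pseudokinases of the IRAK family apart from Irak1 (Irak2, Irak3 and Irak4), and the ubiquitin ligase Traf6. They were taken by symbol from the gene table, where each symbol matched 1 row, and make up 10 of its 53465 genes. All 10 were among the 20419 genes tested, the genes reaching a value of 1 in 3 or more libraries. The lowest value of any of the 10 in any library was 363. Their lowest read count in any library was 266. None therefore entered the test through 1 group alone.

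The RNA is that of peritoneal macrophages, phagocytes of the peritoneal cavity, taken in postnatal week 10 from C57BL/6 mice. All 12 libraries carry Lyz2Cre, a Cre recombinase under control of the lysozyme 2 gene, whose activity covers macrophages and other myeloid cells. They form 4 groups of 3 libraries: Lyz2Cre control, Lyz2Cre with lipopolysaccharide (LPS), and the same treatments under the label Lyz2Cre-BHLHE40-Fl, in which Fl is not spelled out. The title of the series names the transcription factor BHLHE40 and the inflammatory response of macrophages as its subject. The dose and time of LPS, and whether replicates are separate animals or cultures, are not stated in the labels, so the spread behind each p-value is that among these libraries, which may be technical.

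TLR4 is the receptor for LPS, the glycolipid that coats Gram-negative bacteria. CD14 takes LPS up and passes it to MD-2, the product of Ly96, which holds it against TLR4. Inside the cell the bridging adaptor TIRAP brings in MyD88, around which IRAK4 and IRAK2 assemble a complex that activates TRAF6 and then NF-kB and MAP kinase signalling, while IRAK-M, the product of Irak3, restrains this arm. From endosomes the bridging adaptor TRAM (Ticam2) brings in TRIF (Ticam1), which leads to interferon regulatory factor activation and type I interferon.

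Between 20489417 and 29354869 reads per library fell in genes. The deposited values are those reads divided by 1 factor per library, and they are given here as deposited, with mean ± SD over n = 3 libraries. Bhlhe40 itself stood at 4737 to 5306 in Lyz2Cre controls and at 7617 to 8046 in controls labelled Lyz2Cre-BHLHE40-Fl, which is the opposite of what loss of the gene would give if the counted exons lie in the deleted stretch, and the sources used here do not name that stretch. With LPS it stood at 2212 to 2644 and 1956 to 2415. The groups are therefore called BHLHE40-Fl-labelled libraries, and any direction given between genotypes depends on that name. Mitochondrial transcripts took 1.13% ± 0.214 and 0.562% ± 0.0655 of the reads in Lyz2Cre control and LPS libraries, and 1.36% ± 0.233 and 1.52% ± 0.662 in the BHLHE40-Fl-labelled ones, where LPS replicate 1 had 0.756%.

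Markers of macrophages were present in every library, but markers of several other cells moved with the genotype label. The 8 markers of large peritoneal macrophages summed to only 636 to 695 in Lyz2Cre controls and 592 to 672 in BHLHE40-Fl-labelled controls, and Gata6, their defining transcription factor, stood at 24.7 ± 9.06 and 333 ± 39.9. Gata6 went against most of that list, of which 5 were called lower and 1 higher under the BHLHE40-Fl label in controls (median log2 -0.88), and 5 lower and 2 higher with LPS (median -0.92). Of 13 mesothelial and stromal markers, 13 were higher in BHLHE40-Fl-labelled libraries in controls and 13 with LPS. Their summed value was 1951 to 2119 in Lyz2Cre controls and 3133 to 4595 with LPS, against 11199 to 14416 and 11962 to 15861 in the BHLHE40-Fl-labelled groups. The mesothelial marker Upk3b was at 0 in all 6 Lyz2Cre libraries, and Msln and Krt18 were at 0 in Lyz2Cre controls. Of 7 general macrophage markers, 6 were lower in BHLHE40-Fl-labelled controls and 6 with LPS, with sums of 99743 to 112298 and 121081 to 125802 against 58185 to 66752 and 74235 to 78495. Adgre1, which encodes F4/80, stood at 30456 ± 725 against 5635 ± 245 in controls, whereas the lysosomal glycoprotein gene Cd68 stood at 45308 ± 3487 against 44204 ± 4262 (limma adjusted p = 0.802). Of 7 T cell markers, 5 were lower under the label in each treatment, and Cd3e was at 0 in all 6 libraries with it, while their sum with LPS, 1019 to 1303 against 404 to 459, was carried by Lck at 1133 ± 146 against 374 ± 32.9. All 3 neutrophil markers that could be tested were lower as well, and Ly6g was at 0 in all 12 libraries. The sums over all 8 neutrophil markers were 412 to 754 and 978 to 1233 against 45.0 to 74.9 and 136 to 229. Of 5 B cell markers, 0 were called in controls and 1 was lower with LPS. Of 5 mast cell markers that could be tested, 1 was lower in controls and 2 with LPS. Of 4 such dendritic cell markers, 1 was higher and 2 lower under each treatment. The part of these differences in the results below was not tested.

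Cd14 rose with LPS under both labels and was the member that differed most between them. Its gene (Cd14, ENSMUSG00000051439, chr18:36725067-36726798, minus strand; GENCODE M21, mm10, as all positions here) stood at 9046, 7854 and 7982 in Lyz2Cre controls and at 30532, 32381 and 32748 with LPS. In BHLHE40-Fl-labelled libraries it stood at 1265, 1551 and 1477 in controls and at 12106, 11532 and 12380.0 with LPS. The 4 groups did not overlap, and even with LPS the BHLHE40-Fl-labelled libraries stayed far nearer to the untreated than to the treated Lyz2Cre libraries. LPS raised Cd14 by 3.84-fold in Lyz2Cre, a log2 change of 1.94 ± 0.08 (SE, limma adjusted p = 6.02e-13), and by 8.39-fold under the other label, a log2 change of 3.07 ± 0.08 (SE, limma adjusted p = 7.86e-16). The level was 5.80-fold lower in BHLHE40-Fl-labelled controls, a log2 ratio of -2.54 ± 0.08 (SE, limma adjusted p = 5.36e-14), and 2.66-fold lower with LPS, a log2 ratio of -1.41 ± 0.08 (SE, limma adjusted p = 2.1e-10). The rise with LPS was therefore larger under the BHLHE40-Fl label as a ratio, from a lower start. The interaction, on the log2 scale, was 1.13 ± 0.11 (SE, limma adjusted p = 9.55e-07). As a step in deposited values the rise was smaller there, from a mean of 1431 to 12006 against 8294 to 31887 in Lyz2Cre. The size of the rise depended on the scaling, since quantile normalization brought the change in Lyz2Cre to 0.82. In bulk samples fewer cells of a type and less RNA per cell cannot be told apart, for Cd14 or for any gene below.

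Ly96, the coreceptor that completes the LPS-binding complex, moved far less. Its gene (ENSMUSG00000025779, chr1:16688051-16709611, plus strand) was measured at 434 to 466 in Lyz2Cre controls and 745 to 882 with LPS, and at 363 to 445 and 543 to 633 in the BHLHE40-Fl-labelled groups. Controls of both labels overlapped, and LPS libraries lay above their own controls under each label. The log2 change with LPS was 0.89 ± 0.10 (SE, limma adjusted p = 4.95e-07) in Lyz2Cre and 0.56 ± 0.10 (SE, limma adjusted p = 9.73e-05) in BHLHE40-Fl-labelled libraries. With equal library totals these values were 0.16 and -0.05, and both calls were lost. The log2 difference between labels was -0.16 ± 0.10 (SE, limma adjusted p = 0.249) in controls and -0.48 ± 0.10 (SE, limma adjusted p = 0.000735) with LPS, and the latter call was lost with equal totals (limma adjusted p = 0.117).

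The receptor itself, Tlr4, did not move upward, and as deposited it moved less than Cd14. It stood at 5747 ± 366 and 4602 ± 168 in Lyz2Cre control and LPS libraries, and at 4196 ± 133 and 3889.9 ± 382 under the BHLHE40-Fl label, with log2 changes of -0.32 ± 0.07 (SE, limma adjusted p = 0.00145) and -0.11 ± 0.07 (SE, limma adjusted p = 0.223). With equal library totals these changes were -1.05 and -0.73, and with quantile normalization -1.07 and -0.77, all called lower. Levels of different genes are compared per kilobase of exon. On that scale the ratio of Cd14 to Tlr4 was 4.64 ± 0.487 in Lyz2Cre controls and 22.2 ± 1.12 with LPS. In BHLHE40-Fl-labelled libraries this ratio was 1.10 ± 0.125 in controls and 9.96 ± 0.948 with LPS. A ratio within a library does not depend on the factor per library, and the 4 groups did not overlap. The ratio of Ly96 to Tlr4 was 0.426 ± 0.0420 and 0.984 ± 0.0924 in Lyz2Cre and 0.520 ± 0.0415 and 0.833 ± 0.0584 under the other label, so it was higher with LPS than in controls under both labels, without overlap.

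Myd88, the adaptor shared by nearly all Toll-like receptors, had the largest log2 change with LPS among the members under both labels, as deposited and with equal library totals. The only match to an interferon-stimulated response element (GAAA, any 2 bases and GAAA again, searched on both strands) among the members' promoter windows lay at Myd88, so the bases around it are shown, from RefSeq on GRCm38.p6, with the match in capitals. They run from 119340019 to 119340098 on chromosome 9 in the minus-strand direction (chr9:119340019-119340098). The match begins 40 bases before the RefSeq start, outside any GENCODE exon but inside the GENCODE span of Myd88, which begins further upstream. Of the 80 bases shown, 23 lie in a GENCODE untranslated region.
Myd88: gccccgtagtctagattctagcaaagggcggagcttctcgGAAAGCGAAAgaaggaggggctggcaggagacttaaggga
A window of 250 bases before to 50 after a RefSeq start was found for 7 of the 10 genes (9 windows), not for Cd14, Ly96 and Ticam2. Of 32851 such windows of all genes, 3.44% hold this motif. The same search for the NF-kB consensus, present in 8.46% of all windows, gave no match in the 9 windows, which says only that these letters are not there.

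Myd88 RNA (ENSMUSG00000032508, chr9:119335934-119341411, minus strand) was low in every control and high in every LPS library. The Lyz2Cre controls had values of 1283, 1281 and 1036 and the Lyz2Cre LPS libraries of 7398, 7298 and 7909. In BHLHE40-Fl-labelled libraries the values were 814, 909.5 and 812 in controls and 7525, 8387 and 8639.5 with LPS. Controls of the BHLHE40-Fl label lay below all Lyz2Cre controls, while the LPS libraries of both labels overlapped. The rise was 6.28-fold in Lyz2Cre, a log2 change of 2.66 ± 0.09 (SE, limma adjusted p = 2.66e-14), and 9.69-fold under the other label, a log2 change of 3.27 ± 0.09 (SE, limma adjusted p = 9.94e-16). Between labels the log2 difference was -0.50 ± 0.09 (SE, limma adjusted p = 0.000169) in controls and 0.12 ± 0.09 (SE, limma adjusted p = 0.321) with LPS, and the interaction was 0.62 ± 0.12 (SE, limma adjusted p = 0.0013). The difference with LPS was called, at 0.40, when library totals were made equal (limma adjusted p = 0.00105). It was also called with quantile normalization, at 0.35 (limma adjusted p = 0.00478). Of the exonic bases of Myd88, 290 (11.3%) are shared with Acaa1a on the opposite strand, which itself rose from 1315 ± 95.7 to 2488 ± 146 in Lyz2Cre, and the strand setting of the counting is not given.

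Tirap, which brings MyD88 to the receptor at the plasma membrane, was among the lowest members. The gene (ENSMUSG00000032041, chr9:35184551-35200291, minus strand) had values of 408 to 498 in controls and 607 to 636 with LPS in Lyz2Cre, and of 544 to 616 in controls and 790.0 to 878 with LPS under the other label. It was 1 of only 2 members called higher under the BHLHE40-Fl label in controls, by 0.38 ± 0.09 (SE, limma adjusted p = 0.00252) on the log2 scale, and it was called higher with LPS as well, by 0.42 ± 0.09 (SE, limma adjusted p = 0.00106). The LPS changes were 0.48 (limma adjusted p = 0.000195) and 0.51 (limma adjusted p = 9.36e-05) as deposited, and -0.25 (limma adjusted p = 0.0214) and -0.11 (limma adjusted p = 0.319) with equal library totals, so their sign depended on the scaling. Of its exonic bases, 446 (9.05%) are shared with the antisense gene Gm39318.

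Ticam1 encodes TRIF, the adaptor of the interferon arm. Its promoter window held the letters CACGTG, an E-box of the kind that BHLHE40 is known to bind, and is shown for that reason, from RefSeq on GRCm38.p6, with the E-box in capitals. The bases run along the minus strand at chr17:56276857-56276942, and the E-box begins 135 bases before the start, outside any GENCODE exon.
Ticam1: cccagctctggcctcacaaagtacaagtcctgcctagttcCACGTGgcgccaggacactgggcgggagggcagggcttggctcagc
This motif, which reads the same on both strands, occurs in 7.15% of all 32851 windows, and it did not overlap another of the motifs searched. A match is a description of letters and does not show binding.

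Ticam1 (ENSMUSG00000047123, chr17:56269319-56276786, minus strand) changed with LPS under the BHLHE40-Fl label and was not called in Lyz2Cre. In Lyz2Cre it had values of 553, 638 and 435 in controls and 607, 622 and 694 with LPS, which overlapped. In BHLHE40-Fl-labelled libraries it fell from 750.3, 785 and 878 in controls to 424, 547 and 532 with LPS, without overlap. The log2 change was 0.26 ± 0.13 (SE, limma adjusted p = 0.11) in Lyz2Cre and -0.69 ± 0.13 (SE, limma adjusted p = 0.000191) under the other label, and the interaction was -0.95 ± 0.18 (SE, limma adjusted p = 0.00102). With equal library totals the change in Lyz2Cre was -0.47 (limma adjusted p = 0.00384) and that under the other label -1.31 (limma adjusted p = 6.96e-08), both called lower, while the interaction was -0.84 (limma adjusted p = 0.00257). Without Lyz2Cre control replicate 2 the change in Lyz2Cre was 0.38 and called (limma adjusted p = 0.0215). Ticam1 was higher under the BHLHE40-Fl label in controls, by 0.58 ± 0.13 (SE, limma adjusted p = 0.00162). With LPS it was called lower, a log2 ratio of -0.36 ± 0.13 (SE, limma adjusted p = 0.0339), and the call was lost without Lyz2Cre LPS replicate 2 or 3 or BHLHE40-Fl-labelled LPS replicate 1 (limma adjusted p = 0.0593, 0.126 and 0.159), with equal totals (0.69), and in edgeR on the recovered reads (edgeR adjusted p = 0.0692).

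Ticam2 encodes TRAM, which links TRIF to internalised TLR4. The gene (ENSMUSG00000056130, chr18:46557291-46574533, minus strand) stood at 557, 567 and 653 in Lyz2Cre controls and at 946, 844 and 938 with LPS. Under the BHLHE40-Fl label it stood at 470.4, 450.0 and 421 in controls and at 411, 408 and 412 with LPS. All 6 Lyz2Cre libraries lay above all 6 of the other label. In Lyz2Cre the log2 change with LPS was 0.62 ± 0.09 (SE, limma adjusted p = 9.5e-06), which was -0.11 with equal library totals (limma adjusted p = 0.33). In the BHLHE40-Fl-labelled libraries it was -0.12 ± 0.09 (SE, limma adjusted p = 0.268), and -0.74 with equal totals (limma adjusted p = 1.07e-06). The level was 1.32-fold lower under the label in controls, -0.40 ± 0.09 (SE, limma adjusted p = 0.00151) on the log2 scale, and 2.22-fold lower with LPS, -1.14 ± 0.09 (SE, limma adjusted p = 1.15e-08). The call in controls was lost with equal totals (limma adjusted p = 0.0567). The interaction was -0.74 ± 0.12 (SE, limma adjusted p = 0.000279). Ticam2 shares 838 exonic bases (14.5%) with Tmed7 on the same strand, so its reads are uncertain. Tmed7 itself was far higher, at 6784 ± 721 in Lyz2Cre controls and 8482 ± 261 with LPS, against 5713 ± 500.2 and 6609 ± 347.

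**Figure D1:**
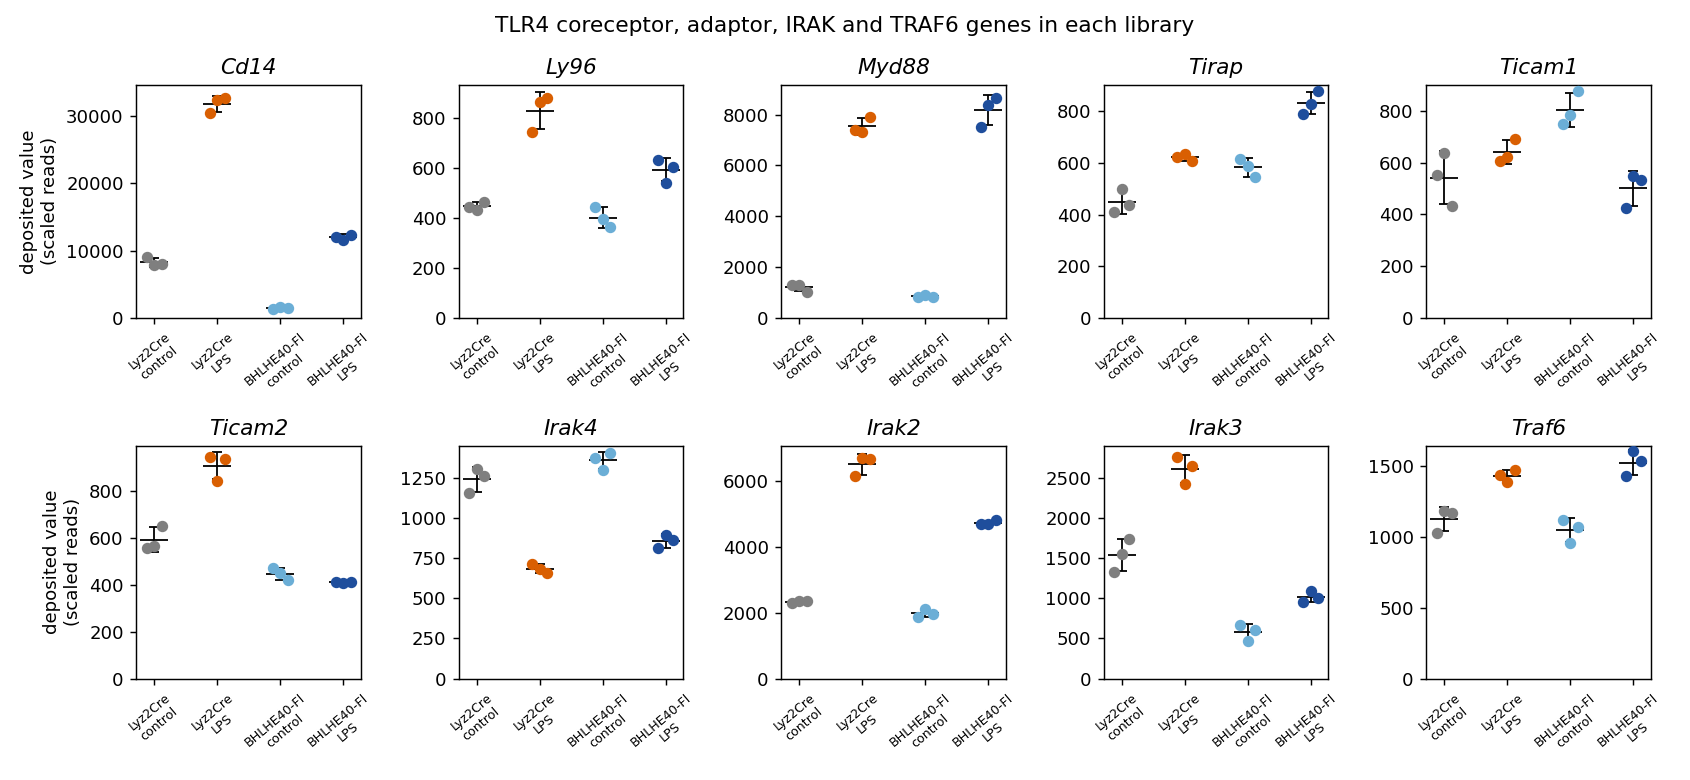
Deposited values (reads divided by a factor per library, linear axes from 0) of the 10 genes in each of the 12 libraries; points are libraries, long bars are group means and short bars 1 SD (n = 3). Cd14 and Irak3 sit lower in the BHLHE40-Fl-labelled groups than in Lyz2Cre under both treatments, and Irak4 sits lower with LPS under both labels.

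Irak4, the kinase that starts the MyD88 complex, was the only member that fell with LPS under both labels as deposited. The gene (ENSMUSG00000059883, chr15:94543643-94581815, plus strand) went from 1157, 1308 and 1261 to 714, 683 and 659 in Lyz2Cre, and from 1373, 1298 and 1404 to 812, 896 and 863 in BHLHE40-Fl-labelled libraries. No control overlapped an LPS library. The log2 changes were -0.86 ± 0.07 (SE, limma adjusted p = 2.06e-08) and -0.66 ± 0.07 (SE, limma adjusted p = 5.54e-07). Controls of both labels overlapped with a log2 ratio of 0.13 ± 0.07 (SE, limma adjusted p = 0.213), and with LPS Irak4 was higher under the BHLHE40-Fl label by 0.32 ± 0.07 (SE, limma adjusted p = 0.00223). With equal totals the difference in controls was 0.31 and called (limma adjusted p = 0.00348), and with quantile normalization 0.29 and called (limma adjusted p = 0.00503). Irak4 shares 395 exonic bases (7.87%) with Twf1 on the opposite strand, which stood at 2161 ± 104 in Lyz2Cre controls and 2371 ± 54.4 with LPS.

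Irak2, the kinase that sustains TRAF6 activation, moved the opposite way from Irak4. The gene (ENSMUSG00000060477, chr6:113638467-113695026, plus strand) rose from 2282, 2363 and 2359 to 6129, 6701 and 6654 in Lyz2Cre and from 1882, 2113 and 1963 to 4682, 4679.7 and 4799 in BHLHE40-Fl-labelled libraries. LPS libraries of the BHLHE40-Fl label all lay below those of Lyz2Cre, and the controls did not overlap either. The rise was 2.78-fold, a log2 change of 1.47 ± 0.06 (SE, limma adjusted p = 1.25e-12), in Lyz2Cre and 2.38-fold, a log2 change of 1.25 ± 0.06 (SE, limma adjusted p = 9.44e-12), under the other label. Between labels the log2 difference was -0.23 ± 0.06 (SE, limma adjusted p = 0.0079) in controls, a call lost with equal totals (limma adjusted p = 0.526) and quantile normalization (limma adjusted p = 0.241), and -0.46 ± 0.06 (SE, limma adjusted p = 1.54e-05) with LPS. With equal totals the difference with LPS was -0.17 and still called (limma adjusted p = 0.0378).

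Irak3 encodes IRAK-M, a negative regulator found mainly in monocytes and macrophages. One of its 2 RefSeq start windows also held a CACGTG E-box, which begins 5 bases after that start, in an exon that Irak3 shares on the opposite strand with Tmbim4. It is shown, with the E-box in capitals, from the minus strand at chr10:120201575-120201604 (RefSeq, GRCm38.p6).
Irak3: ggctccctacgtCACGTGgggcccgccctg
The other start window of Irak3, and those of Irak2, Irak4, Tirap and Traf6, held none of the 3 motifs searched.

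Irak3 (ENSMUSG00000020227, chr10:120141648-120202130, minus strand) differed between labels under both treatments. Its values were 1330.3, 1547 and 1736 in Lyz2Cre controls and 671, 463 and 599 in BHLHE40-Fl-labelled controls. With LPS they were 2762, 2422 and 2642 and 955, 1084 and 1006. All 6 BHLHE40-Fl-labelled libraries, LPS included, lay below all 6 Lyz2Cre libraries. Irak3 was 2.66-fold lower under the label in controls, a log2 ratio of -1.42 ± 0.12 (SE, limma adjusted p = 3.14e-08), and 2.57-fold lower with LPS, a log2 ratio of -1.36 ± 0.12 (SE, limma adjusted p = 6.4e-08). With equal totals these were -1.24 and -1.07, both called. The LPS changes were 0.77 ± 0.12 (SE, limma adjusted p = 2.61e-05) in Lyz2Cre and 0.83 ± 0.12 (SE, limma adjusted p = 1.12e-05) under the other label. Both LPS calls were lost with equal totals, at 0.04 (limma adjusted p = 0.802) and 0.21 (limma adjusted p = 0.134). Irak3 shares 192 exonic bases (5.22%) with Tmbim4 on the opposite strand, which stood at 1792 ± 125 and 1146 ± 123 in the controls of the 2 labels.

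Traf6, the ubiquitin ligase onto which the MyD88 arm converges, varied least of the members as deposited. The gene (ENSMUSG00000027164, chr2:101678429-101701669, plus strand) had values of 1030.0 to 1181 and 1389 to 1469.8 in Lyz2Cre control and LPS libraries and of 953 to 1119 and 1428 to 1604 under the BHLHE40-Fl label. The labels overlapped under each treatment, and no difference between them was called (log2 -0.11 in controls, limma adjusted p = 0.369, and 0.09 with LPS, limma adjusted p = 0.447), although with equal totals that with LPS was 0.37 and called (limma adjusted p = 0.000761). With LPS it was called higher under both labels, by 0.35 ± 0.08 (SE, limma adjusted p = 0.0014) and 0.54 ± 0.08 (SE, limma adjusted p = 1.7e-05). In Lyz2Cre this became -0.38, called lower, with equal totals (limma adjusted p = 0.00034), and the other change became -0.08.

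**Figure D2:**
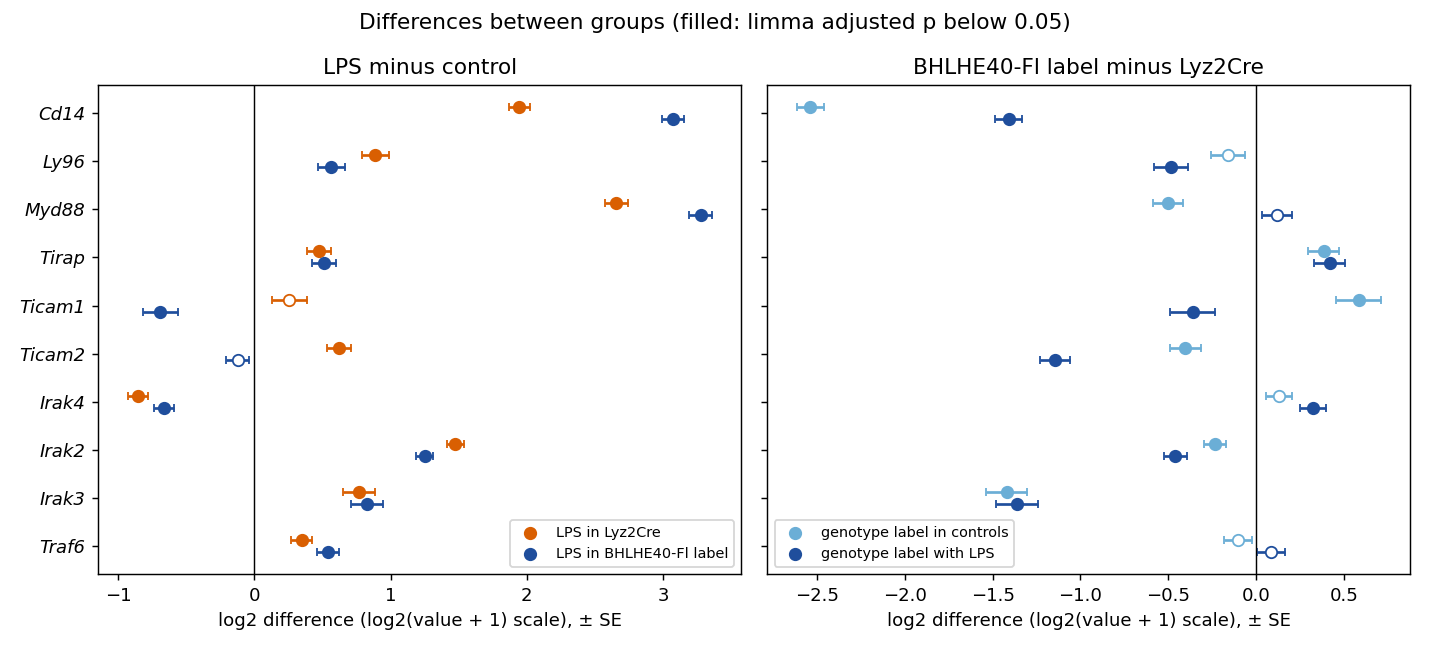
Log2 differences with their SE from the limma fit (log2(value + 1) scale, deposited scaling), LPS minus control at left and BHLHE40-Fl label minus Lyz2Cre at right, with filled points for adjusted p below 0.05. Cd14 and Irak3 lie furthest to the left at right under both treatments. At left, Cd14, Myd88, Ticam1 and Ticam2 separate by label, Cd14 and Myd88 with the larger log2 rise under the BHLHE40-Fl label.

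Counted together for the LPS response in Lyz2Cre, 8 of the 10 genes were called higher and 1 (Irak4) lower, and Ticam1 was not called. Over all genes tested, 48.9% were called in either direction, 25.0% higher and 23.9% lower. Control and LPS libraries did not overlap for 9 of the 10, against 54.5% of all genes. Under the BHLHE40-Fl label 7 were called higher and 2 (Ticam1 and Irak4) lower, where 50.5% of all genes were called, 24.9% higher and 25.6% lower. Here 10 of 10 did not overlap, against 55.6% of all genes. Both counts are above the background as deposited, but that background includes many genes far below the members' values. With the filter raised from 1 to 5, 15647 genes remained in the test. The calls in Lyz2Cre were then 5001 up and 4792 down, and those under the label 5022 and 5012. These are larger shares than those of all genes, as they also were between labels. A background matched to the members' values was not tested. With equal library totals 7 of 10 were called in Lyz2Cre and 6 of 10 under the label, against 58.2% and 59.6% of all genes, so the count under the label was then near the background. The members' median log2 change was 0.69 in Lyz2Cre and 0.55 under the label, against 0.00 and -0.05 for all genes, as deposited. With equal totals it was -0.03 and -0.07, against -0.58 and -0.56 for all genes.

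Between labels more members were lower than higher under the BHLHE40-Fl label as deposited, but not with equal library totals. In controls 5 were called lower (Cd14, Myd88, Ticam2, Irak2 and Irak3) and 2 higher (Ticam1 and Tirap). Of all genes 31.6% were called, 16.6% lower and 15.0% higher, and groups did not overlap for 7 members and 41.3% of all genes. With LPS 6 were called lower (Cd14, Ly96, Ticam1, Ticam2, Irak2 and Irak3) and 2 higher (Tirap and Irak4). The background there was 37.4%, with 19.8% lower and 17.7% higher, and groups did not overlap for 8 members and 45.9% of all genes. With equal totals 3 were called higher and 3 lower in controls, where 25.0% of all genes were higher and 12.4% lower, and 4 higher and 4 lower with LPS, where 30.4% were higher and 2238 of 20419 lower. As deposited the members' median log2 difference was -0.20 in controls and -0.41 with LPS, against 0.00 and -0.02 over all genes. With equal totals it was -0.02 and -0.12, against 0.17 and 0.22 over all genes. The interaction, the LPS change under the BHLHE40-Fl label minus that in Lyz2Cre, was called for 4 of 10, higher for Cd14 and Myd88 and lower for Ticam1 and Ticam2, against 18.8% of all genes (9.52% higher and 9.31% lower). The LPS comparisons and the genotype comparisons share their libraries and are not independent of each other. Beside these differences, 6 of 7 general macrophage markers were called lower in controls (median log2 -2.18) and 6 with LPS (median -1.02). Cd68 was the marker not called in controls. Among those called, Adgre1 and Csf1r differed by -2.43 and -1.06 on the log2 scale in controls, where Cd14 differed by -2.54 and Irak3 by -1.42. The part of these markers in the result was not tested.

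The scaling between libraries moved these counts. Mean deposited totals in Lyz2Cre were 22693602 for controls and 37605645 with LPS, and under the BHLHE40-Fl label 20073802 and 30832914, so giving every library the same total lowers LPS libraries. Over all genes tested the median log2 change with LPS then went from 0.00 to -0.58 in Lyz2Cre and from -0.05 to -0.56 under the BHLHE40-Fl label. For the genotype label it moved from 0.00 to 0.17 in controls and from -0.02 to 0.22 with LPS. Only Cd14, Myd88 and Irak2 were then called higher with LPS, under both labels, with log2 changes of 1.22, 1.93 and 0.75 in Lyz2Cre and 2.45, 2.66 and 0.63 under the other label. Irak4 was called lower under both, at -1.58 and -1.28, as was Ticam1. In total 3 members were then higher and 4 lower in Lyz2Cre, where 11.7% of all genes were higher and 46.5% lower. Under the label 3 were higher and 3 lower, where 12.8% of all genes were higher and 46.8% lower. Read against the median of all genes, 9 members lay above it for LPS in Lyz2Cre and 7 for LPS under the BHLHE40-Fl label, and 7 lay below it for the genotype label in controls and 6 with LPS. A factor per library moves nearly all genes alike, so these counts could hardly change with it. Quantile normalization, which is not of that kind, gave the same 4 counts.

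**Figure D3:**
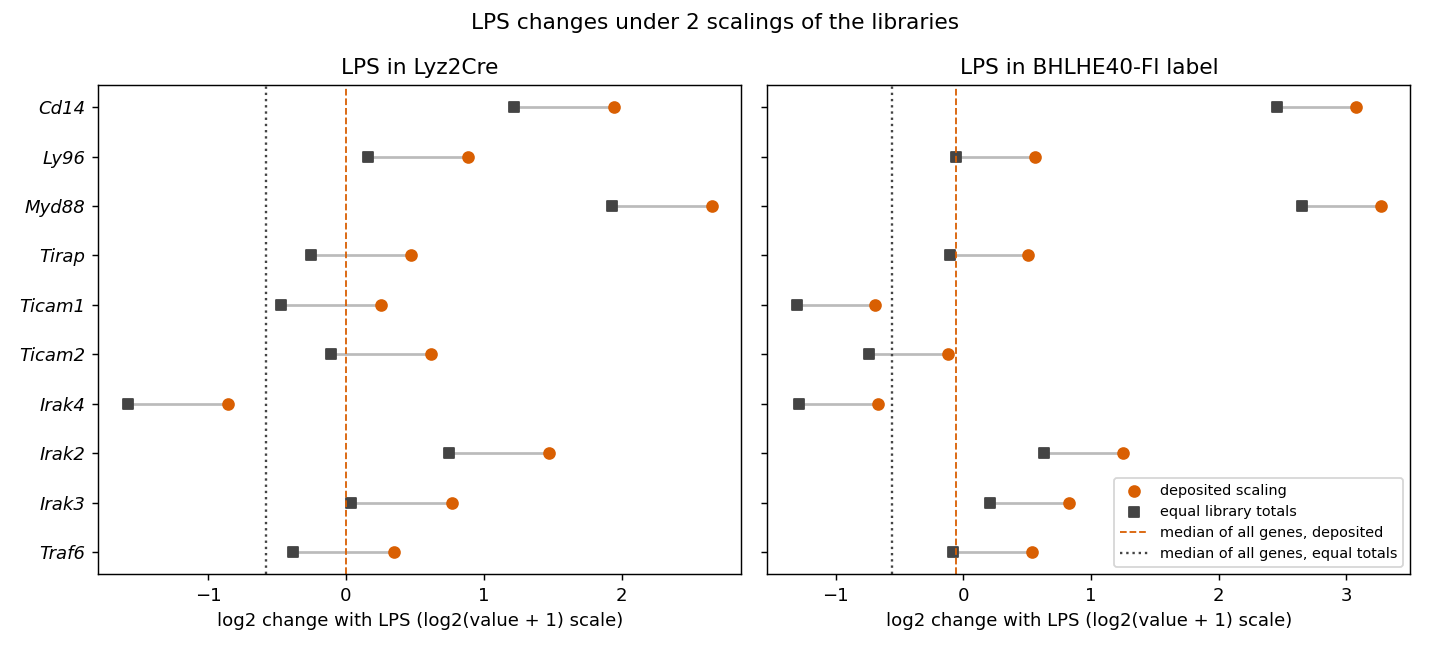
Log2 change with LPS (log2(value + 1) scale) for the 10 genes with the deposited scaling (circles) and with equal library totals (squares), and the median of all genes under each (vertical lines). Every member moves left with equal totals, as does the median of all genes. Cd14, Myd88, Irak2 and Irak3 stay right of 0 in both panels, Irak3 without a call with equal totals.

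Ratios between members within a library, per kilobase of exon, do not depend on that scaling. With 3 libraries against 3 an exact 2-sided permutation test cannot go below p = 0.1, so groups are described by their overlap. The ratio of the plasma-membrane adaptor to the endosomal one, Myd88 to Ticam1, was 2.60 ± 0.234 in Lyz2Cre controls and 13.7 ± 0.456 with LPS. Under the BHLHE40-Fl label it was 1.23 ± 0.139 in controls and 19.1 ± 1.43 with LPS. The order of the labels therefore turned over: the BHLHE40-Fl-labelled libraries were lowest in controls and highest with LPS, and no 2 groups overlapped. The ratio of the bridging adaptor to its partner, Tirap to Myd88, was lower with LPS and went from 0.197 ± 0.0280 to 0.0432 ± 0.00279 in Lyz2Cre and from 0.362 ± 0.0302 to 0.0532 ± 0.00168 under the other label. Ticam2 to Ticam1 was 0.585 ± 0.168 and 0.735 ± 0.0609 in Lyz2Cre, which overlapped, and 0.289 ± 0.0386 and 0.429 ± 0.0630 under the label, which did not.

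The ratios of Irak2, Irak3 and Traf6 to Irak4 were higher with LPS under both labels, without overlap. Irak2 to Irak4 went from 2.14 ± 0.0951 to 10.8 ± 0.914 in Lyz2Cre and from 1.67 ± 0.161 to 6.28 ± 0.310 in BHLHE40-Fl-labelled libraries. The ratio of the inhibitory Irak3 to Irak4 went from 1.69 ± 0.167 to 5.20 ± 0.322 in Lyz2Cre, and from 0.579 ± 0.0903 to 1.62 ± 0.0323 under the label. BHLHE40-Fl-labelled libraries with LPS thus had about the ratio of untreated Lyz2Cre libraries. Irak3 to Irak2 was lower under the label in both treatments, at 0.352 ± 0.0834 against 0.789 ± 0.0919 in controls and 0.258 ± 0.0176 against 0.484 ± 0.0539 with LPS, with no overlap. Traf6 to Irak4 went from 0.577 ± 0.0116 to 1.33 ± 0.0769 and from 0.491 ± 0.0260 to 1.13 ± 0.0105, by 2.31-fold in Lyz2Cre and by 2.30-fold under the label.

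**Figure D4:**
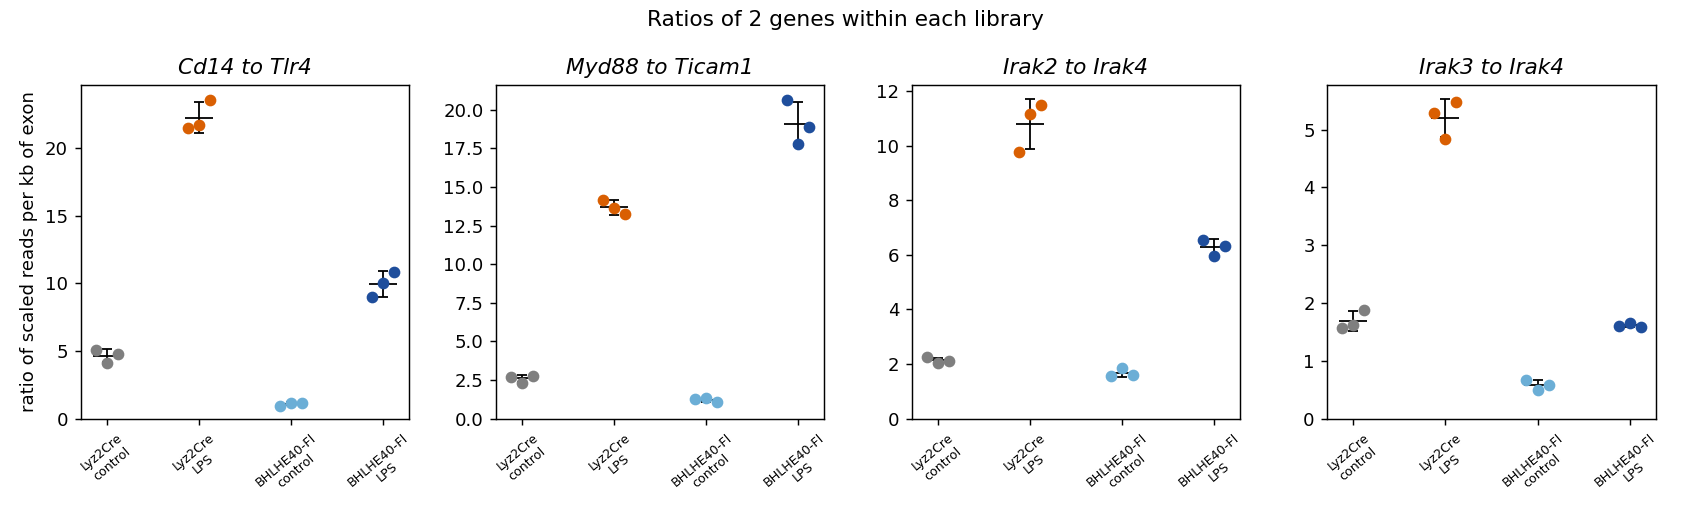
Ratios of deposited values per kilobase of exon between pairs of genes in each library (linear axes from 0; points are libraries, long bars means, short bars 1 SD, n = 3). Cd14 to Tlr4, Irak2 to Irak4 and Irak3 to Irak4 are lower in the BHLHE40-Fl-labelled group under each treatment, whereas Myd88 to Ticam1 is lower in controls and higher with LPS.

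Per kilobase of exon Cd14 was the highest member in all 4 groups. In Lyz2Cre controls it stood at 4789 ± 378 per kilobase, followed by Irak2 at 529 ± 10.3. Myd88 (466 ± 55.2), Ly96 (439 ± 15.7) and Irak3 (418 ± 55.2) came next, each overlapping its neighbour. Irak4 (247 ± 15.4) and Ticam1 (181 ± 34.1) followed, and Traf6 (143 ± 10.6) overlapped Ticam1. Ticam2 (102 ± 9.17) and Tirap (90.9 ± 9.26) were lowest and overlapped. In Lyz2Cre with LPS the order was Cd14 (18411 ± 686), Myd88 (2925 ± 127), Irak2 (1472 ± 71.9), Ly96 and Irak3, the last 2 overlapping, and Irak4 (137 ± 5.48) was next to lowest, above Tirap (126 ± 2.97).

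In BHLHE40-Fl-labelled controls Cd14 (826 ± 85.8 per kilobase) stood much closer to the next members, Irak2 (450.1 ± 26.5) and Ly96 (393 ± 40.2, overlapping Irak2). Irak3 (157 ± 28.8) lay below Irak4 (271 ± 10.8) and Ticam1 (269 ± 22.1), which overlapped each other. With LPS under that label Cd14 (6932 ± 249.9) and Myd88 (3177 ± 227) led. Traf6, Irak4, Tirap and Ticam1 lay together between 167 and 193, and Ticam2 was lowest at 70.8 ± 0.364.

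Profiles over the 12 libraries were compared by the root mean square (RMS) difference of log2 values centred on each gene's mean. The search covered 9987 genes with a mean of at least 50, the members included. All libraries enter each profile, so closeness reflects the 4 groups and the shared scaling, and it is given as a description. The profile of Cd14, whose own RMS spread was 1.62, was nearest to Jag1 (RMS difference 0.174), Micall2 (0.221) and Creb5 (0.225). Jag1 had group means of 2451, 7581, 429 and 3601 in Lyz2Cre control, Lyz2Cre LPS, BHLHE40-Fl-labelled control and BHLHE40-Fl-labelled LPS libraries. Myd88 was nearest to Igsf8 (0.105), Ogfr (0.115) and Tor1aip2 (0.150), and Irak3 to Sash1 (0.135), Id2 (0.148) and Abcc1 (0.189). Irak2 was nearest to Bcl10 (0.0733), Plekha2 and Fbxo42, and Traf6 to Arcn1 (0.0511), Herc1 and Prmt2. Ticam1 was nearest to Wfs1 (0.109), Ticam2 to Sgpp1 (0.0912), Tirap to Ppp4r1 (0.0856) and Ly96 to Txndc9 (0.0782). No member was among the 3 nearest genes of another. The closest pair of members was Tirap and Traf6 (0.225) and the most distant Cd14 and Irak4 (1.99).

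The lists of other genes of the pathway were counted in the same way. Of 7 genes of the receptor, LPS delivery and Toll-like receptor chaperones, 2 were called higher and 4 lower with LPS in Lyz2Cre, and 2 and 3 under the BHLHE40-Fl label (2 and 5 under each label with equal totals). The median log2 changes were -0.32 and -0.11, against 0.00 and -0.05 over all genes, and the shares of all genes called, given above for the deposited scaling and for equal totals, are the background for this list and the lists that follow. The 2 that rose under both labels were Cd180 and Ly86, which encode the Toll-like receptor relative RP105 and its partner MD-1. Cd180 went from 1801 ± 263 to 6049.5 ± 702 in Lyz2Cre and from 1966 ± 88.2 to 4536 ± 163 under the label, and Ly86 from 2240.3 ± 277 to 5150.4 ± 596 and from a mean of 1048 to 4632 ± 316. The chaperone genes Cnpy3 and Cnpy4 fell, at -0.97 and -1.05 on the log2 scale in Lyz2Cre and at -1.04 and -1.08 under the label.

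Downstream of the IRAK kinases, 9 of 14 genes of the MyD88 arm were called higher and 3 lower with LPS in Lyz2Cre (median log2 0.29), and 6 and 2 under the label (median 0.33). With equal totals these counts were 3 and 7, and 4 and 8. Rnf31, the catalytic subunit of the linear ubiquitin ligase, rose from 939.8 ± 204 to 4135 ± 174 in Lyz2Cre and from 653 ± 65.6 to 4457 ± 649 under the label, and the kinase gene Map3k8 from 704 ± 16.4 to 2963 ± 58.7 and from 1174 ± 40.1 to 3725 ± 169.5. Irak1, the remaining IRAK kinase, fell with Irak4, from 2296 ± 74.9 to 1429 ± 50.1 and from 2345 ± 41.5 to 1674 ± 257. Of 11 genes of the TRIF arm 7 were called higher and 2 lower in Lyz2Cre (median 0.82), and 8 and 0 under the label (median 0.57), or 5 and 5, and 5 and 4, with equal totals. Peli1, a ubiquitin ligase gene, rose from 673 ± 26.5 to 8840.5 ± 647 in Lyz2Cre and from 655 ± 20.1 to 10784 ± 557 under the label. Tank, which encodes a scaffold of the kinase TBK1, rose from 2668 ± 342 to 24299 ± 499 in Lyz2Cre but to 8517 ± 655, from 1580.3 ± 246, under the label, with an interaction of -0.76 on the log2 scale (limma adjusted p = 0.00107).

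Of 12 negative regulators of the pathway other than Irak3, 7 were called higher and 0 lower with LPS in Lyz2Cre (median log2 0.44), and 5 and 3 under the label (median 0.17). With equal totals the counts were 5 and 3, and 5 and 4. Tnfaip3, which encodes the deubiquitinase A20, rose from 2987 ± 111 to 30252 ± 1829 in Lyz2Cre and from 1516 ± 99.8 to 33979 ± 292 under the label, and Trim30a, which encodes a ubiquitin ligase that restrains NF-kB activation, from 5255 ± 2193 to 48934 ± 925 and from 1812 ± 254 to 47085 ± 2537. The list of 11 genes of TLR4 internalisation and sorting had 6 higher and 3 lower (median 0.33), and 6 and 4 under the label (median 0.21), or 1 and 7, and 3 and 7, with equal totals. Rab7b, a GTPase of late endosomes that promotes TLR4 breakdown, fell from 10939 ± 595 to 874 ± 39.2 in Lyz2Cre and from 12849 ± 420.0 to 263 ± 23.7 under the label, with an interaction of -1.97 (limma adjusted p = 6.44e-10).

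Between labels the list counts moved with the scaling, as did those of all genes given above. Of the 7 receptor genes 1 was called higher and 4 lower under the label in controls, and 1 and 4 with LPS (2 and 3, and 1 and 0, with equal totals). The 14 MyD88 arm genes gave 1 higher and 3 lower in controls and 3 and 4 with LPS (4 and 0, and 9 and 1, with equal totals). Of the 11 TRIF arm genes 1 was called higher and 4 lower under the label in controls, and 4 and 4 with LPS (2 and 1, and 6 and 2, with equal totals). The 12 negative regulator genes gave 1 higher and 4 lower in controls and 1 and 5 with LPS (4 and 4, and 5 and 1, with equal totals). Of the 11 internalisation and sorting genes 3 were called higher and 5 lower under the label in controls, and 1 and 5 with LPS (4 and 2, and 6 and 1, with equal totals). The interaction was called higher and lower for 1 and 1 receptor genes, 3 and 2 of the MyD88 arm, 3 and 1 of the TRIF arm, 4 and 2 negative regulators, and 2 and 2 sorting genes. Tlr4 itself was called lower under the label, with log2 differences of -0.45 ± 0.07 (SE, limma adjusted p = 0.000101) in controls and -0.25 ± 0.07 (SE, limma adjusted p = 0.0136) with LPS, the latter call being lost with equal totals (0.04, limma adjusted p = 0.719).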

How the data were processed

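The authors deposited 1 table of genes by 12 libraries. Its values are a signal per gene that the submitters had already scaled: per the submitters' processing notes the tools were STAR, Cufflinks and Cuffdiff on mm10, with no versions, and the counter, its strand setting and the scaling method are not given in those notes or the labels. From the deposited values, 100% in each library came out as whole reads (tolerance 0.06) divided by 1 factor per library, a read being worth 0.725 to 1.56. The 12 libraries held 20489417 to 29354869 reads, and a member's value rested on 266 to 23476 reads. Of 53465 gene IDs, 53274 matched GENCODE M21, which gave positions and exon lengths.

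Values were analysed as deposited, on log2(value + 1), with limma 3.58.1 (R 4.3.3), trended variances, 1 mean per group over all 12 libraries, and Benjamini-Hochberg adjustment over 20419 genes with at least 1 in at least 3 libraries. Adjusted p below 0.05 counts as called. A fold change on this scale understates that of low genes. Alternatives were other pseudocounts, filters and scalings (median-of-ratios factors, equal totals, quantile normalization), robust variances, the compared groups alone, a replicate block, leaving out each library, and edgeR 4.0.16 and DESeq2 1.42.0 on the recovered reads. The method was tested on simulated data, where calls between labels with LPS were somewhat too many among low genes, below the members' values. How far this alters the share of all genes called there was not tested. In the data, a filter at 5 cut the tested genes to 15647 but left 3572 calls up and 3977 down in that comparison. Without it they were 3610 and 4033, so the share called was larger without the lowest genes. Replicates differed by more than sampling noise (chi-square per degree of freedom 7.35 to 72.2 over 12 pairs), so none was counted as a duplicate. The groups and pathway lists were described by counts and medians, with no set test. The 10 genes, the lists and the tests were chosen with earlier results of these data known. Named besides the 10 genes were up to 4 called genes of each list with the largest change, genes a sentence rests on, and the genes nearest each member in profile (up to 3, those of Irak4 are not reported here), while Gata6, Lck and other markers are named beside the results they move with. Itgam, which has 2 entries in the table, was left out of the marker counts.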

Additional observations from a re-analysis of the deposited data

Results flagged for a closer look

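The change with LPS differed between the labels for 4 of the 10 genes by a test of the difference itself, the interaction in limma. It is given as the log2 change in BHLHE40-Fl-labelled libraries minus that in Lyz2Cre libraries. Cd14 had a difference of 1.13, so its rise as a ratio was larger under the BHLHE40-Fl label, where its control level was lower. Its step in deposited values was smaller there. Myd88 had a difference of 0.62 in the same direction. Ticam1 had a difference of -0.95, and Ticam2 of -0.74. These 4 calls held under every alternative tried, among them each of the scalings and the fits that leave out 1 library. With equal totals the median interaction of all genes moved only from -0.03 to 0.06. Scalings by a factor per library could therefore hardly change these calls. Quantile normalization, which is not of that kind, kept them as well. The mesothelial, stromal and macrophage markers that differ between the labels were measured in the same libraries, and their part in these differences was not tested.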

How the results depend on the processing

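Over the 10 genes, 5 comparisons and all alternatives, 1151 of 1190 values kept their direction and their side of the threshold, 16 kept their direction but lost the call, 7 kept it and gained one, and 16 changed sign, with or without a call. The choice that mattered was the scaling. With equal library totals, 3 genes were called higher and 4 lower for LPS in Lyz2Cre, 3 higher and 3 lower for LPS under the BHLHE40-Fl label, 3 higher and 3 lower under the label in controls, and 4 higher and 4 lower under it with LPS, beside the shares of all genes given with these counts above. That scaling turned the log2 change with LPS in Lyz2Cre to -0.47 for Ticam1, -0.11 for Ticam2, -0.25 for Tirap and -0.38 for Traf6. Under the BHLHE40-Fl label it turned Ly96 to -0.054, Tirap to -0.11 and Traf6 to -0.079, and in controls the difference between labels to 0.016 for Ly96 and 0.071 for Traf6. Quantile normalization turned the latter to 0.022 and the interaction of Tirap to -0.093, and left the rise of Traf6 in Lyz2Cre without a call (0.11, limma adjusted p = 0.287). Whether the deposited or the equal totals are nearer to RNA per cell was not tested.

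Leaving out 1 library at a time gave 9 to 10 genes called for LPS in Lyz2Cre, 9 for LPS under the label, 7 between labels in controls, 7 to 8 with LPS and 4 for the interaction. The interaction of Tirap then ranged from -0.043 to 0.10 and that of Irak3 from -0.092 to 0.18, neither called. The difference of Ticam1 between labels with LPS also lost its call with no filter (limma adjusted p = 0.052), with quantile normalization (0.0901) and in the compared groups alone (0.0565). Where 1 library is left out, the remaining spread is shared over all groups. Replicate numbers did not pair the libraries: 0 of 18 same-number pairs had a correlation over 0.1 (-0.0664 to 0.0277), and 10 of 36 comparisons of a library with another group were best with its own number. The fit with a replicate block kept 9, 9, 7, 8 and 4 genes called in the 5 comparisons and changed no call of the 10 genes. Depth did not limit the 10 genes, whose lowest read count was 266.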
